A study of Caenorhabditis elegans with 8 samples.

Results

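The genes named *nhr* followed by a number are the bulk of the nuclear hormone receptor family of *Caenorhabditis elegans*. All protein-coding genes with such a name in the Ensembl annotation of WBcel235, the assembly also called ce11, were taken by name. No measured value entered that rule, but the family was chosen with earlier results of these data known. They numbered 269 of 19973 protein-coding genes and of 46890 annotated genes in all. Chromosome V held 167 of them, and the other 102 were spread over chromosomes I (23), II (15), III (8), IV (33) and X (23). Repair of UV damage was measured in all 269, and the members on chromosome V were set beside the other members.

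In XR-seq, short stretches of DNA that are removed together with a lesion during nucleotide excision repair are purified and sequenced. Here these excised oligonucleotides were pulled down by an antibody that binds cyclobutane pyrimidine dimers (CPDs). Each read is taken to mark 1 removed dimer on 1 strand. The 8 libraries made 4 groups of 2 replicates. Mutant *csb-1* worms (strain RB1801) were L1 larvae taken 1 h after UV. Mutant *xpc-1* worms (strain TG2226) were also taken 1 h after UV but were a mix of stages. WT worms (strain N2) were L1 larvae taken 1 h after UV, and WT no UV worms were L1 larvae that were not irradiated. CSB-1 is needed for transcription-coupled repair and XPC-1 for global repair, so *csb-1* worms are left with global repair and *xpc-1* worms with transcription-coupled repair. Whole animals were used, so no value belongs to 1 tissue, and strong repair in a few cells cannot be told apart from weak repair in many. Nothing states that replicates came from separate cultures, and p-values below measure the spread between these libraries.

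Nuclear hormone receptors are transcription factors with a zinc-finger DNA-binding domain and a domain that can bind small lipophilic ligands. A few worm receptors have clear orthologues in flies and mammals, with roles in molting, cell fate and metabolism. Most of the others descend from an ancestor related to the mammalian receptor HNF4 and expanded in nematodes, and the ligands and targets of many remain unknown. Repair of the transcribed strand (TS) starts when an elongating RNA polymerase II stalls at a lesion, whereas global repair acts on the TS and the non-transcribed strand (NTS). Reads of the TS here are those that lie on the strand opposite to the annotated one.

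Only reads on the 6 nuclear chromosomes whose mapping quality exceeded 20 were used. These kept reads numbered 6628507 and 13203914 in *csb-1*, 4762651 and 143716 in mixed-stage *xpc-1*, 8198054 and 3252700 in WT, and 10260 and 12916 in WT no UV. The second *xpc-1* library was thus far shallower than the other irradiated ones. In a stretch of *csb-1* on chromosome X from 15863113 to 15864077, no read was found in either *csb-1* library (a count of 0 allows up to 3), against 52 and 26 in WT. In a stretch of *xpc-1* on chromosome IV from 1994035 to 1994542, both *xpc-1* libraries had 0 reads, against 26 and 5 in WT. Both stretches were found from their values. The 95% intervals are of the exact Clopper-Pearson kind, and they cover no error but that of counting. Summed TS reads per kilobase of gene and scaled to the kept reads of the library (RPKM, reads per kilobase per 1000000 kept reads) of 3 oocyte and meiosis genes were 81.0 and 44.0 in *xpc-1*, against 11.1 and 11.9 in WT. Those of 2 neuronal genes were 76.3 and 125, against 33.4 and 39.7, those of 2 epidermis genes 20.3 and 13.6, against 5.76 and 9.67, and those of 2 body wall muscle genes 9.91 and 15.6, against 8.17 and 10.3. Intestine, adult yolk and sperm genes ran the other way, at 7.56 and 9.42 against 10.3 and 11.3, 2.57 and 2.71 against 3.74 and 3.60, and 2.92 and 0 against 5.87 and 4.44. The higher epidermis sum was that of *lin-26*, at 16.8 and 13.6 RPKM in *xpc-1*, against 3.28 and 5.27 in WT. The other epidermis gene, *dpy-7*, was at 3.48 and 0, against 2.48 and 4.41. The body wall muscle sums of *xpc-1* and WT overlapped. The sperm sum was mostly that of *spe-11*, at 2.37 and 0 RPKM in *xpc-1*, against 4.597 and 4.44 in WT. The sperm gene *msp-3* was at 0 in all of these libraries, but 98.3% of its reads fell below the mapping quality limit, as did 32.6% of those of *msp-142*.

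The reads in *nhr* genes numbered 68290 and 134690 in *csb-1*, 39096 and 1655 in mixed-stage *xpc-1*, 89591 and 35608 in WT, and 110 and 121 in WT no UV. As a share of the kept reads they made up 1.03 and 1.02% in *csb-1*, 0.821 and 1.15% in *xpc-1*, 1.09 and 1.09% in WT, and 1.07 and 0.937% in WT no UV. The mean read number in WT was 542 times that in WT no UV, so unirradiated reads were few at these genes. Every *nhr* value of the irradiated libraries is given as measured, with no background subtracted.

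The members on chromosome V were short and closely packed. Their median length was 2146 bp, against 3143.5 bp for the other members. A further *nhr* gene lay within 10 kb of 122 of the 167 (73.1%), against 37 of the other 102 (36.3%), and the median distance to the nearest one was 1093 bp, against 29515 bp. When chromosome V is cut into 3 equal parts, 78 members (46.7%) lay in the left, 41 (24.6%) in the centre and 48 (28.7%) in the right part, whereas the protein-coding genes of V were spread as 31.1, 36.0 and 32.9%. A gene on the other strand overlapped 31 members on V (18.6%) and 38 of the other members (37.3%). In such genes the TS of one is the NTS of the other. More than 50% of reads fell below the mapping quality limit in 0 members on V and in 8 of the others, and values of those 8 are uncertain. They are *nhr-73*, *nhr-244*, *nhr-245* and *nhr-259* on chromosome I, *nhr-257* and *nhr-261* on II, and *nhr-264* and *nhr-267* on IV.

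Over all *nhr* genes, the TS share of reads was 49.3 and 50.01% in *csb-1*, 82.0 and 84.1% in mixed-stage *xpc-1*, and 56.4 and 57.7% in WT. Both *csb-1* libraries lay below both WT libraries, and both *xpc-1* libraries lay far above all of them. The TS holds 49.7% of the TT dinucleotides of these genes, the main sites of CPDs. The mean gap of *csb-1* minus WT was -7.37 percentage points. An exact two-sided permutation test of 2 libraries against 2 gave p = 0.3333, the smallest it can give. The same shares over all protein-coding genes were 49.3 and 49.4% in *csb-1*, 84.5 and 83.7% in *xpc-1*, and 55.0 and 56.2% in WT. WT no UV had 55.5 and 49.6% over the *nhr* genes, from 110 and 121 reads.

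**Figure D1:**
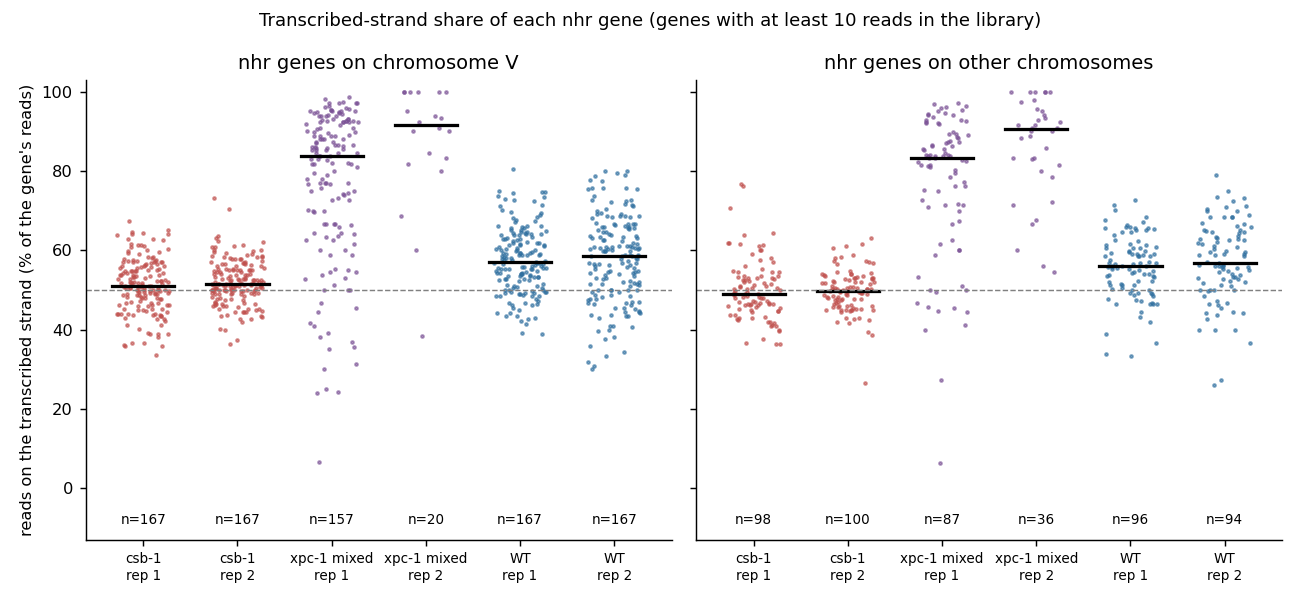
TS share of reads (percent, y axis) of each *nhr* gene with at least 10 reads in the library, for chromosome V members and the other members in each library (x axis). Points are genes and the medians are marked; *csb-1* libraries centre near 50%, WT libraries lie a little higher, and mixed-stage *xpc-1* libraries lie highest.

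The strand ratio, log2((TS + 0.5)/(NTS + 0.5)), was compared between *csb-1* and WT for every gene with a mean of at least 20 reads, which 263 of the 269 passed. The 6 that did not are all among the 8 with low mapping quality. The ratio was lower in *csb-1* in 63 of 263 members (24.0%) and higher in 0 at an adjusted p under 0.05 from limma. Over all genes tested the same calls were made for 13.3% (lower) and 0.344% (higher). At an unadjusted p under 0.05, 106 members were lower and 2 higher. The median difference was -0.37 for the members and -0.21 for all genes. On chromosome V 31 of 167 members (18.6%) were lower, against 32 of the other 96 (33.3%). Here and below, V members and the others were not matched for length or read number, on which a call also depends. The median differences lay closer, at -0.35 on V and -0.42 elsewhere, and 82.0 and 85.4% of the differences were below 0. All protein-coding genes had the same order, with 11.2% on V and 18.3% elsewhere. By chromosome, the ratio was lower in 1 of 19 members on I, 3 of 15 on II, 4 of 8 on III, 12 of 31 on IV and 12 of 23 on X. The count of 63 depended on single libraries, with 21 without *csb-1* replicate 1, 35 without *csb-1* replicate 2 and 104 without WT replicate 1. When genes with a mean of at least 1 read entered, 0 members passed, and 97 did at an unadjusted p under 0.05.

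Both *csb-1* libraries lay below both WT libraries in 152 of the 263 members (57.8%), and both lay above in 16 (6.08%). Over all genes tested these shares were 41.0 and 10.9%. The 63 members past the threshold differed by between -1.40 and -0.36, with a median of -0.87. Of these, 50 also had a lower TS level in *csb-1*, and 2 had a higher NTS level. Over all genes tested, 12.9% had a lower TS level and 1.64% a higher NTS level. The 63 were picked by a ratio that uses the same reads, so these counts are partly set by the choice. They were not set beside those of all genes with a lower ratio. In 27 of the 63 a gene on the other strand overlaps the member, against 69 of all 269 members (25.7%). Among the 194 tested members without such a gene, 36 (18.6%) had a lower ratio.

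The members were grouped by known role, and the lists were drawn up with earlier results of these data known. Among 12 receptors with a role in metabolism, the strand ratio was lower in *csb-1* in 7, and the median difference was -0.53. Among 11 receptors with clear orthologues it was lower in 2, with a median of -0.33, and among 4 with a role in development in 2, with a median of -0.48. The 236 members with no listed role had 52 lower (22.0%) and a median of -0.37. No member of any of these groups had a higher ratio past the threshold. Over all genes tested 13.3% were lower. Among protein-coding genes at 10 RPKM or more in *xpc-1* replicate 1 it was 42.9%. The groups were not matched for TS level, and whether role bears on these counts was not tested. Of the 21 members named below that passed, 11 lost the call without *csb-1* replicate 1 and 6 without *csb-1* replicate 2.

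The metabolic receptor NHR-49 is related to HNF4 and controls fatty acid desaturation and beta-oxidation. Its gene *nhr-49* (WBGene00003639) on chromosome I, from 9869651 to 9874680 on the plus strand, had the highest TS level of all members in *xpc-1* replicate 1. Its TS level was 7.02 and 7.41 RPKM in *csb-1*, 39.3 and 71.9 in *xpc-1*, and 16.2 and 18.0 in WT. The TS share was 43.3 and 45.3% in *csb-1*, 96.8 and 100% in *xpc-1*, and 65.1 and 70.3% in WT. *csb-1* was low and *xpc-1* high on both measures, and no group overlapped another. The gene is also among those picked by their fall and their *xpc-1* level, so this order was largely set by the choice. In strand ratio, both *csb-1* libraries lay below both WT libraries in 41.0% of all genes tested. The second *xpc-1* library had 52 TS reads and 0 NTS reads, which allows up to 3. The strand ratio was -1.40 ± 0.14 (SE) in *csb-1* minus WT, the largest fall of all members (adjusted p = 0.00022 from limma). The TS level differed by -1.24 ± 0.11 (adjusted p = 3.3e-06 from limma), and the NTS level differed by 0.16 ± 0.12 (adjusted p = 0.44 from limma).

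NHR-80, NHR-13 and NHR-66 are partners of NHR-49 in lipid control. The TS share of *nhr-80* was 54.6 and 52.7% in *csb-1*, against 66.5 and 68.5% in WT, a strand ratio difference of -0.83 ± 0.26 (adjusted p = 0.047 from limma). *nhr-13*, on chromosome V, had 46.1 and 52.8% in *csb-1*, against 62.9 and 65.8% in WT, with a difference of -0.88 ± 0.22 (adjusted p = 0.016 from limma). *nhr-66*, which other genes overlap on both strands, had 39.7 and 43.0% in *csb-1*, against 48.8 and 47.2% in WT, with -0.39 ± 0.10 (adjusted p = 0.015 from limma). All 3 partners had a lower TS share in both *csb-1* libraries than in both WT libraries. That order held in strand ratio for 41.0% of all genes tested. The share of *nhr-66* was under 50% in WT, while its TS level in *xpc-1* was 26.8 and 14.2 RPKM.

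NHR-10 and NHR-68 act together in the control of the propionate shunt, yet their values differed. The TS share of *nhr-10* on chromosome III was 51.5 and 50.4% in *csb-1*, 97.1 and 93.3% in *xpc-1*, and 67.2 and 73.1% in WT. That of *nhr-68* on chromosome V was 49.7 and 50.6% in *csb-1*, 85.9 and 75% in *xpc-1*, and 54.1 and 51.5% in WT. The *csb-1* libraries lay well below WT at *nhr-10*, whereas at *nhr-68* they lay just under it, and the second *xpc-1* library had 4 reads there. The strand ratio differences were -1.17 ± 0.20 (adjusted p = 0.0016 from limma) and -0.15 ± 0.20 (adjusted p = 0.73 from limma). The difference between the pair was not tested.

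The other metabolic receptors with a lower strand ratio were *nhr-14*, which acts in iron uptake and innate immunity, and *nhr-86*, whose product senses a bacterial phenazine. *nhr-14* had a TS share of 46.5 and 44.9% in *csb-1*, against 55.8 and 58.5% in WT, with a difference of -0.66 ± 0.18 (adjusted p = 0.021 from limma). *nhr-86* had 52.4 and 52.6% in *csb-1*, against 60.1 and 68.6% in WT, with -0.71 ± 0.19 (adjusted p = 0.024 from limma), and a gene on the other strand overlaps it. Neither pair of groups overlapped, and *csb-1* lay below WT without overlap in 41.0% of all genes tested. The remaining 4, *nhr-114*, *nhr-62*, *nhr-76* and *nhr-57*, had differences between -0.40 and -0.16 and did not pass the test. *nhr-114*, which acts in vitamin B12 responses, was the metabolic receptor with the lowest TS share in *xpc-1*, at 45.5 and 38.5%, while its TS level there was 10.2 and 12.4 RPKM. A gene on the other strand overlaps it.

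Among the conserved receptors, *nhr-48*, a relative of the dauer receptor DAF-12, and *nhr-41*, an orthologue of the testicular receptors TR2 and TR4, had a lower strand ratio in *csb-1*. *nhr-48* had a TS share of 47.9 and 49.0% in *csb-1*, 95.3 and 100% in *xpc-1*, and 58.5 and 59.7% in WT, with a difference of -0.62 ± 0.13 (adjusted p = 0.0047 from limma). *nhr-41* had 50.4 and 49.1% in *csb-1*, 82.2 and 91.7% in *xpc-1*, and 55.6 and 56.3% in WT, with -0.36 ± 0.11 (adjusted p = 0.038 from limma). A gene on the other strand overlaps *nhr-41*. At both genes *csb-1* was low, WT between and *xpc-1* high, without overlap. Taking *csb-1* and WT alone, 41.0% of all genes tested had this order in strand ratio. The other 9 ranged from -0.50 at *nhr-239*, of the NR2E group, to 0.02 at *nhr-23*, and did not pass.

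*nhr-23* is the orthologue of the ROR receptors and drives the molting programme. Its TS share was 46.3 and 42.0% in *csb-1*, 78.4 and 54.5% in *xpc-1*, and 43.2 and 44.2% in WT, so that the *csb-1* and WT libraries overlapped. The second *xpc-1* value rests on 6 TS and 5 NTS reads. The difference was 0.02 ± 0.15 (adjusted p = 0.95 from limma). Only 42.0% of the TT dinucleotides of *nhr-23* are on its TS, and in WT its strand ratio was below 0, at -0.36 (adjusted p = 0.013 from limma). With the TT ratio of the gene subtracted it was 0.10 (adjusted p = 0.48 from limma), so the sign turned and the call was lost. The TS level in *xpc-1* was 18.1 and 6.37 RPKM, against 4.65 and 4.69 in WT. *nhr-25*, the orthologue of fly FTZ-F1 that also acts in molting, had a TS share of 44.8 and 45.6% in *csb-1*, 86.5 and 80.0% in *xpc-1*, and 49.9 and 51.7% in WT, with a difference of -0.33 ± 0.15 (adjusted p = 0.19 from limma). *nhr-85*, the orthologue of Rev-erb, had 48.8 and 49.2% in *csb-1*, 83.7 and 90.0% in *xpc-1*, and 53.6 and 58.8% in WT, with -0.42 ± 0.15 (adjusted p = 0.096 from limma). It passed without WT replicate 1, at -0.57 (adjusted p = 0.0014 from limma). Genes on the other strand overlap *nhr-25* and *nhr-85*.

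Of the 4 developmental receptors, *nhr-40*, which acts in body wall muscle, had a TS share of 47.0 and 47.7% in *csb-1*, against 56.6 and 56.0% in WT. The difference was -0.52 ± 0.09 (adjusted p = 0.0020 from limma). *nhr-31*, which acts in the excretory cell, had 42.3 and 44.6% in *csb-1*, against 51.2 and 54.01% in WT, with -0.53 ± 0.13 (adjusted p = 0.011 from limma), and a gene on the other strand overlaps it. *nhr-2*, expressed in early embryos, differed by 0.05 ± 0.23 and *nhr-60*, of the seam cells, by -0.44 ± 0.25, and neither passed. The *csb-1* and WT libraries did not overlap at *nhr-40*, *nhr-31* or *nhr-60*, whereas those of *nhr-2* did. At *nhr-60* the TS share was 46.8 and 49.7% in *csb-1*, against 55.8 and 55.9% in WT. In strand ratio, *csb-1* lay below WT without overlap in 41.0% of all genes tested.

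The largest falls after *nhr-49* were all on chromosome V, at *nhr-154*, *nhr-44*, *nhr-203*, *nhr-58* and *nhr-42*. The highest TS levels in *xpc-1* replicate 1 were, after *nhr-49*, at *nhr-154*, *nhr-56*, *nhr-117*, *nhr-45*, *nhr-84*, *nhr-42* and *nhr-184*, among members without a gene on the other strand. Of these 7, 6 lie on V and *nhr-45* lies on X. No role was listed for any of them. To show what was sequenced at these genes, the most frequent excised oligonucleotide of the TS is printed for 7 members, at the 3′ end with most reads over the 6 irradiated libraries. Each is shown 5′ to 3′ at the longest length seen, read from RefSeq's copy of the genome, with the TT that lies 6 nt from the 3′ end in capitals.
*nhr-154*: tcgacggaaaaatgttTTacaacc
*nhr-56*: tgctgacgtcacacttTTtcggac
*nhr-117*: ttcctcgaatgtataaTTtgacca
*nhr-45*: gcggccatggcaaacaTTtgattc
*nhr-84*: cattcctctgccgacaTTtatact
*nhr-42*: gccttcatcgtgcttaTTtgggtt
*nhr-44*: accagcccagctttatTTtcgaag

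In WBcel235 these lie at chrV:12101948-12101971 on the minus strand (*nhr-154*, exon), chrV:2219790-2219813 on the minus strand (*nhr-56*, intron) and chrV:1619916-1619939 on the plus strand (*nhr-117*, exon). The next are chrX:4658581-4658604 on the plus strand (*nhr-45*, exon), chrV:15879317-15879340 on the plus strand (*nhr-84*, exon), chrV:6998986-6999009 on the minus strand (*nhr-42*, intron) and chrV:8963198-8963221 on the plus strand (*nhr-44*, intron). The 3′ end of the *nhr-56* oligonucleotide had 4 and 7 reads in *csb-1*, 7 and 0 in *xpc-1*, 6 and 5 in WT, and 0 in both WT no UV libraries. The 7 ends had between 15 and 29 reads each over the irradiated libraries and 0 without UV. The same 3′ end appeared with 5 or 6 read lengths. At *nhr-184* the position 6 nt from the end held AA, and at *nhr-203* and *nhr-58* it held AT.

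Over the 183 members without any overlapping gene, TT stood at that position in 50.4 and 48.9% of the TS reads in *csb-1*, 47.8 and 46.6% in *xpc-1*, and 50.5 and 52.5% in WT. In WT no UV it stood there in 13.5 and 19.4%, from 37 and 31 TS reads. Irradiated TS reads thus carried TT there about equally in the 3 strains and more often than the few unirradiated ones. On the NTS the shares were 50.6 and 49.4% in *csb-1*, 39.1 and 29.6% in *xpc-1*, and 50.4 and 53.2% in WT.

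*nhr-154* (from 12101293 to 12103396 on chromosome V, plus strand) had a TS level of 8.75 and 8.42 RPKM in *csb-1*, 33.2 and 66.1 in *xpc-1*, and 15.5 and 19.6 in WT. Its TS share was 49.0 and 51.3% in *csb-1*, 93.8 and 100% in *xpc-1*, and 72.4 and 72.4% in WT. All groups stood apart, as at *nhr-49*. Both genes are among those picked by their fall and their *xpc-1* level, so this was largely set by the choice. In strand ratio, both *csb-1* libraries lay below both WT libraries in 41.0% of all genes tested. The strand ratio differed by -1.38 ± 0.18 in *csb-1* minus WT (adjusted p = 0.00049 from limma). *nhr-56* had a TS share of 55.5 and 56.9% in *csb-1*, 95.1 and 95% in *xpc-1*, and 71.4 and 75.6% in WT, with a difference of -1.11 ± 0.19 (adjusted p = 0.0016 from limma). *nhr-84* had 64.4 and 58.4% in *csb-1*, 97.2 and 100% in *xpc-1*, and 74.8 and 80.0% in WT, with -1.10 ± 0.20 (adjusted p = 0.0023 from limma). *nhr-84* had a strand ratio above 0 in *csb-1* itself, at 0.67 (adjusted p = 0.0059 from limma).

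At *nhr-44*, which a gene on the other strand overlaps, the TS share was 56.1 and 50% in *csb-1*, 83.9 and 87.5% in *xpc-1*, and 73.8 and 75.4% in WT, and the difference was -1.37 ± 0.21 (adjusted p = 0.0010 from limma). *nhr-58* had 43.9 and 43.6% in *csb-1*, 90.8 and 93.3% in *xpc-1*, and 59.3 and 72.0% in WT. Its WT replicates lay further apart than those of the other *nhr* genes named here, and the difference was -1.31 ± 0.25 (adjusted p = 0.0030 from limma). The differences at *nhr-203*, *nhr-42*, *nhr-117*, *nhr-184* and *nhr-45* were -1.32, -1.23, -0.99, -0.91 and -0.75, all past the threshold with limma. *nhr-42* shares part of its length with a gene on its own strand, and reads there count for both. In each of these 5 both *csb-1* libraries had a lower TS share than both WT libraries. For *nhr-203* and *nhr-42*, picked by their fall, this was largely set by the choice. Of all genes tested, 41.0% had the same order in strand ratio.

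**Figure D2:**
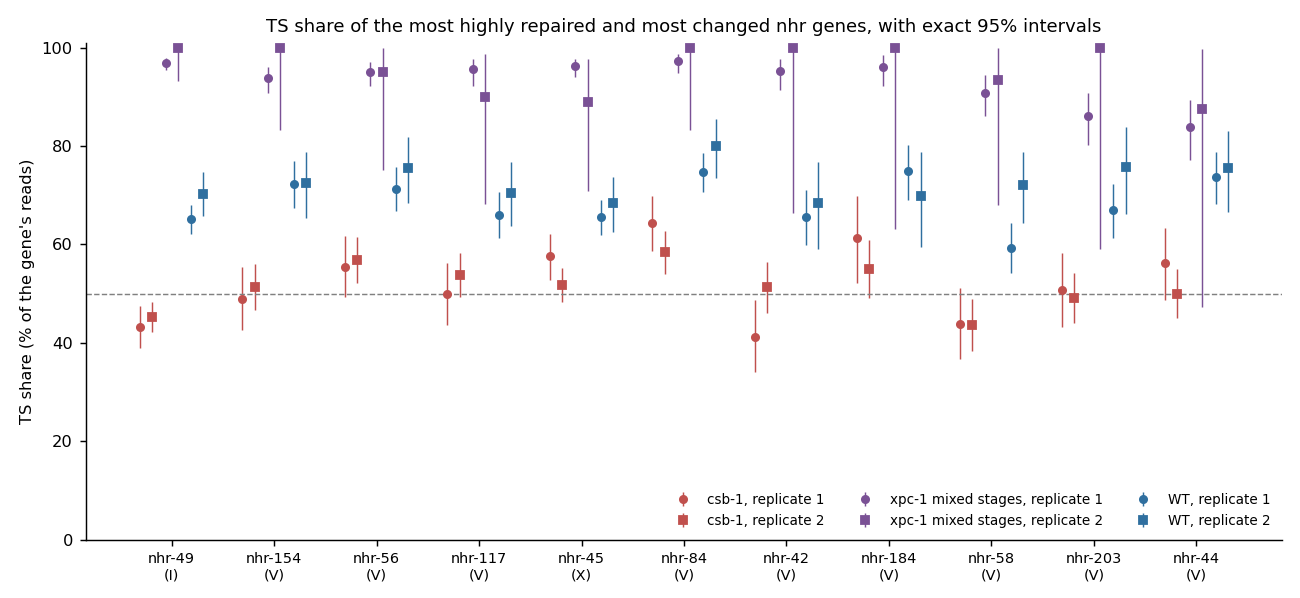
TS share of reads (percent) in each irradiated library for the *nhr* genes with the highest TS level in *xpc-1* replicate 1 among members without a gene on the other strand, or with the largest fall of the strand ratio, with exact 95% intervals as bars. At *nhr-49* the share was 43.3 and 45.3% in *csb-1*, against 65.1 and 70.3% in WT. Both *csb-1* libraries lie below both WT libraries at the other genes too. For genes picked by their fall this follows largely from the choice. Of all genes tested, 41.0% had the same order in strand ratio.

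The members differed widely in TS level in mixed-stage *xpc-1*. In replicate 1, 58 had under 1 RPKM, 50 had 1 to 3, 87 had 3 to 10 and 74 had 10 or more. The strand ratio was lower in *csb-1* than in WT in 1 of 52 tested in the lowest class, 3 of 50 and 14 of 87 in the next ones and 45 of 74 in the highest, or 1.92, 6.0, 16.1 and 60.8%. Over all protein-coding genes in the same classes 0.198, 0.797, 10.6 and 42.9% were lower, so the order is shared by genes in general. The median differences were -0.04, -0.17, -0.42 and -0.67 for the members and -0.01, -0.07, -0.26 and -0.62 for all protein-coding genes, in the same order. In the highest class the pooled TS share was 48.7 and 49.3% in *csb-1*, 86.8 and 88.0% in *xpc-1*, and 58.8 and 61.2% in WT. In the lowest it was 49.8 and 51.1% in *csb-1*, 45.0 and 43.3% in *xpc-1*, and 50.9 and 50.3% in WT. The WT shares were thus close to 50% in the lowest class and highest in the highest one. The classes were set from the TS reads of *xpc-1* replicate 1, so its own share in them is only a description. Across the 263 genes the Spearman correlation of the *xpc-1* TS level with the strand ratio difference was -0.60, and within V and elsewhere it was -0.61 and -0.59. Genes are not independent replicates, and the points share the same libraries.

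**Figure D3:**
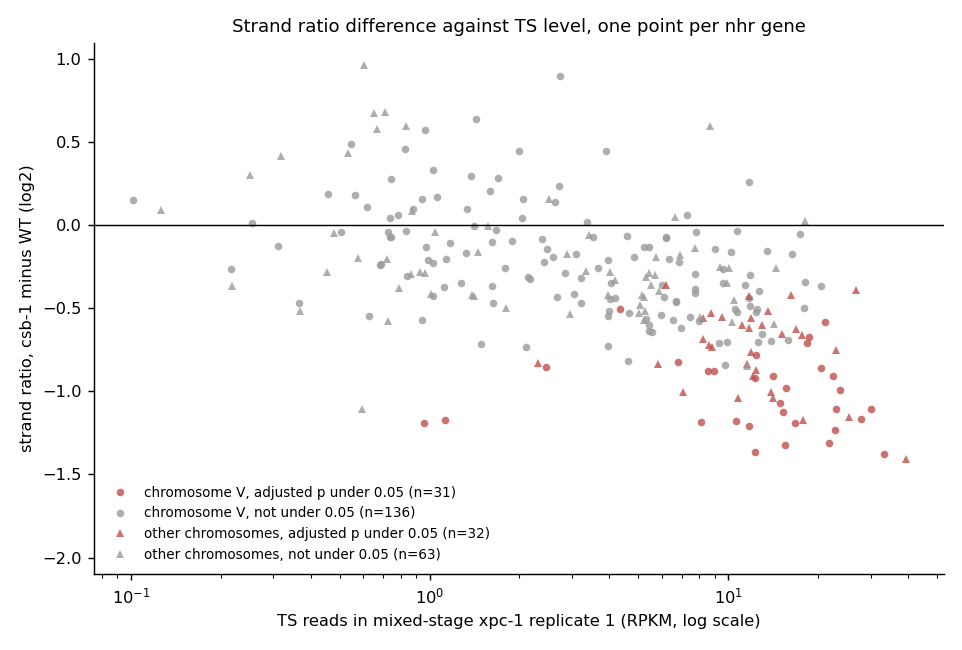
Strand ratio in *csb-1* minus WT (log2, y axis) against the TS level in *xpc-1* replicate 1 (RPKM, log scale, x axis), 1 point per *nhr* gene tested (262 plotted, 1 with 0 TS reads left out), by chromosome and by whether the adjusted p was under 0.05. Of the 74 members at 10 RPKM or more, 45 had a lower ratio in *csb-1*, against 1 of 52 under 1 RPKM.

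TS levels of the same genes in different libraries went together. Over the 269 members the Spearman correlation was 0.84 between the *xpc-1* replicates, 0.95 between those of WT and 0.94 between those of *csb-1*. Between *xpc-1* replicate 1 and WT replicate 1 it was 0.87, and between *xpc-1* replicate 1 and *csb-1* replicate 1 it was 0.73. These describe the genes, which share length, mappability and base composition across libraries.

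The members on V had a pooled TS share of 50.8 and 51.7% in *csb-1*, 84.2 and 84.1% in *xpc-1*, and 58.7 and 59.5% in WT. The other members had 48.4 and 48.8% in *csb-1*, 80.3 and 84.0% in *xpc-1*, and 54.9 and 56.5% in WT. The share on V was higher by 2.36 and 2.92 points in *csb-1*, by 3.93 and 0.027 points in *xpc-1* and by 3.80 and 2.97 points in WT. In *xpc-1* replicate 2 the pooled shares were thus nearly equal, and the median share over genes was 88.75% on V, against 90% elsewhere. The gap differed by -0.75 points in *csb-1* minus WT, and the nearest replicate values were 2.92 in *csb-1* and 2.97 in WT (exact two-sided permutation p = 0.3333, the smallest possible). Without members overlapped by a gene of the opposite strand, the gap was 2.24 points in *csb-1* and 0.77 in WT, so the difference turned to 1.47 points. The TS held 50.2% of the TT dinucleotides of the V members and 49.2% of those of the others.

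The V members were also set beside the other genes of their chromosome. Their median TS level in *xpc-1* was 4.34 and 5.58 RPKM, against 5.28 and 6.65 RPKM for the other members. The protein-coding genes of V had 1.82 and 1.60 RPKM, against 4.45 and 4.43 RPKM for those of the other chromosomes. In replicate 1, 17.4% of the V members and 33.8% of the protein-coding genes of V were under 1 RPKM, against 28.4% of the other members and 18.1% of the other protein-coding genes. In WT the medians were 5.52 and 5.36 RPKM for V members, against 5.42 and 5.87 for the others, and in *csb-1* 4.86 and 5.18 against 5.01 and 4.99. The lower median on V in *xpc-1*, 0.830 times that of the other members, changed to 1.12 times without members overlapped by a gene of the opposite strand.

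Along chromosome V, the median TS level of members in *xpc-1* replicate 1 was 6.09 RPKM in the left part, 5.23 in the centre and 1.83 in the right part. All protein-coding genes of V had 1.45, 3.19 and 1.23 RPKM in the same parts. The strand ratio was lower in *csb-1* in 20 of 78 members of the left part, 5 of 41 of the centre and 6 of 48 of the right, or 25.6, 12.2 and 12.5%. Over all protein-coding genes of V the shares were 11.02, 14.9 and 7.20%. The right part thus had the lowest median level, and 20 of the 31 members called on V lay in the left part.

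Taking members within 10 kb of each other as 1 run, 122 of the V members formed 30 runs, 16 of them with at least 3 genes. The other chromosomes had 14 runs with 37 members, and the longest, of 5 genes on IV, held *nhr-122*, *nhr-92*, *nhr-87*, *nhr-146* and *nhr-274*. The longest run on V held 12 genes in 45.8 kb and spanned 451451 to 497297, from *nhr-123* to *nhr-131*. Its TS levels in *xpc-1* replicate 1 ranged between 2.14 and 15.5 RPKM, and 3 of the 12 had a lower strand ratio in *csb-1*. A run of 9 genes in 24.7 kb holds *nhr-184* and *nhr-56*, and its levels ranged between 1.79 and 30.1 RPKM, with 3 of 9 lower. A further run of 9 in 39.6 kb ranged between 2.74 and 20.4 RPKM, with 2 lower, and one of 9 in 41.8 kb between 0.626 and 4.63 RPKM, with 1 lower. A run of 8 in the right part, between 15674007 and 15702363, had 0.310 to 6.33 RPKM and 0 lower. Over all V members 18.6% were lower, and over all protein-coding genes of V 11.2%. Counts in single runs are too small to set apart from these shares. Genes with high and low TS levels thus lay side by side within a run.

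**Figure D4:**
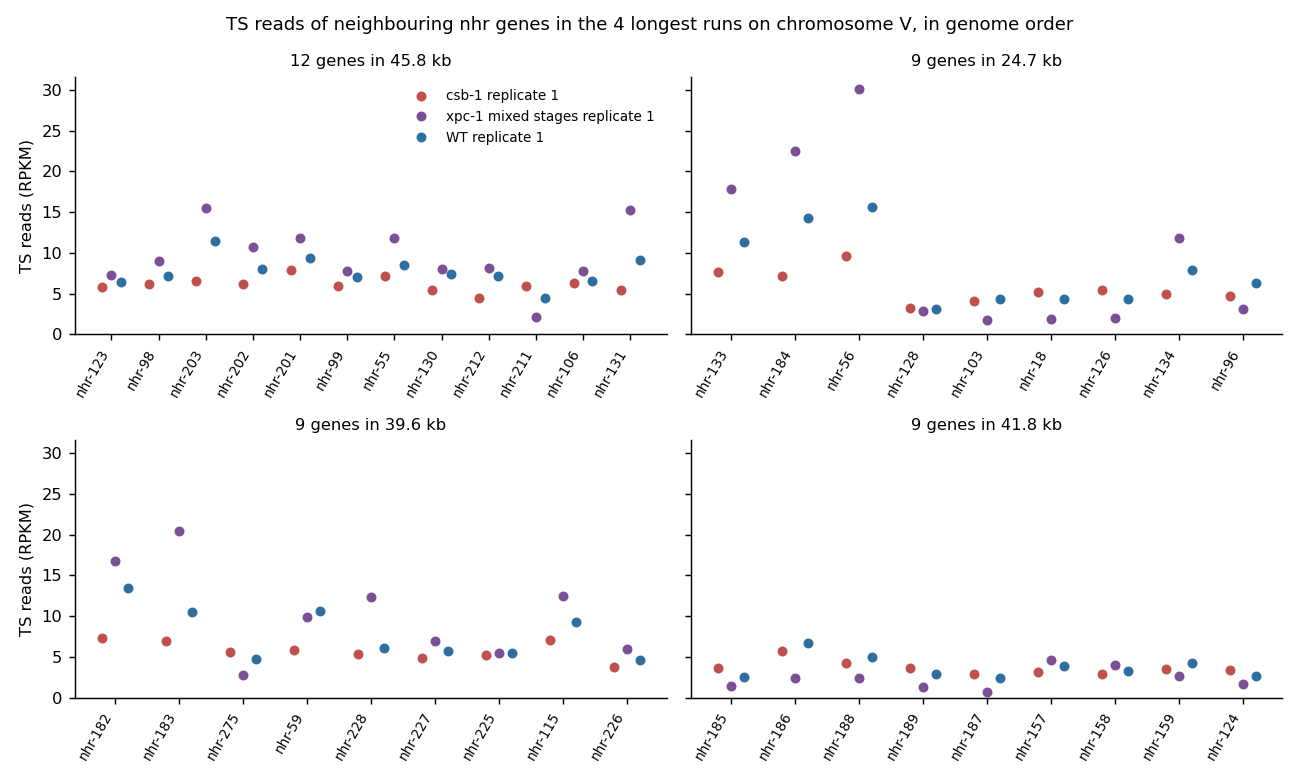
TS level in RPKM (y axis) of the neighbouring *nhr* genes in the 4 longest runs on chromosome V, in genome order (x axis), in replicate 1 of *csb-1*, mixed-stage *xpc-1* and WT. In the run that holds *nhr-56* the *xpc-1* replicate 1 level ranged between 1.79 and 30.1 RPKM.

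Reads around the gene start were summed over members of at least 1500 bp without an overlapping gene, 112 on V and 49 elsewhere. On V, the mean TS level in *xpc-1* was 3.72 and 4.85 RPKM in the 500 bp before the start, 8.87 and 12.4 in the first 500 bp and 7.02 and 11.3 from 1000 to 1500 bp. In WT it was 7.24 and 6.73 before the start, 8.36 and 8.50 in the first 500 bp and 6.21 and 5.88 from 1000 to 1500 bp. In *csb-1* the same stretches had 6.89 and 6.41, 6.62 and 6.39, and 5.20 and 5.26 RPKM. The TS level was thus higher just after the start than before it in *xpc-1* and WT, and not in *csb-1*. The other members showed the same order, with 4.75 and 5.96 RPKM before the start and 9.02 and 18.5 RPKM in the first 500 bp in *xpc-1*, 5.84 and 6.14 against 6.92 and 7.04 in WT, and 5.46 and 5.13 against 5.14 and 4.71 in *csb-1*. On the NTS of V members, *xpc-1* replicate 1 had 2.89 RPKM before the start, 1.06 in the first 500 bp and 1.11 from 1000 to 1500 bp.

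**Figure D5:**
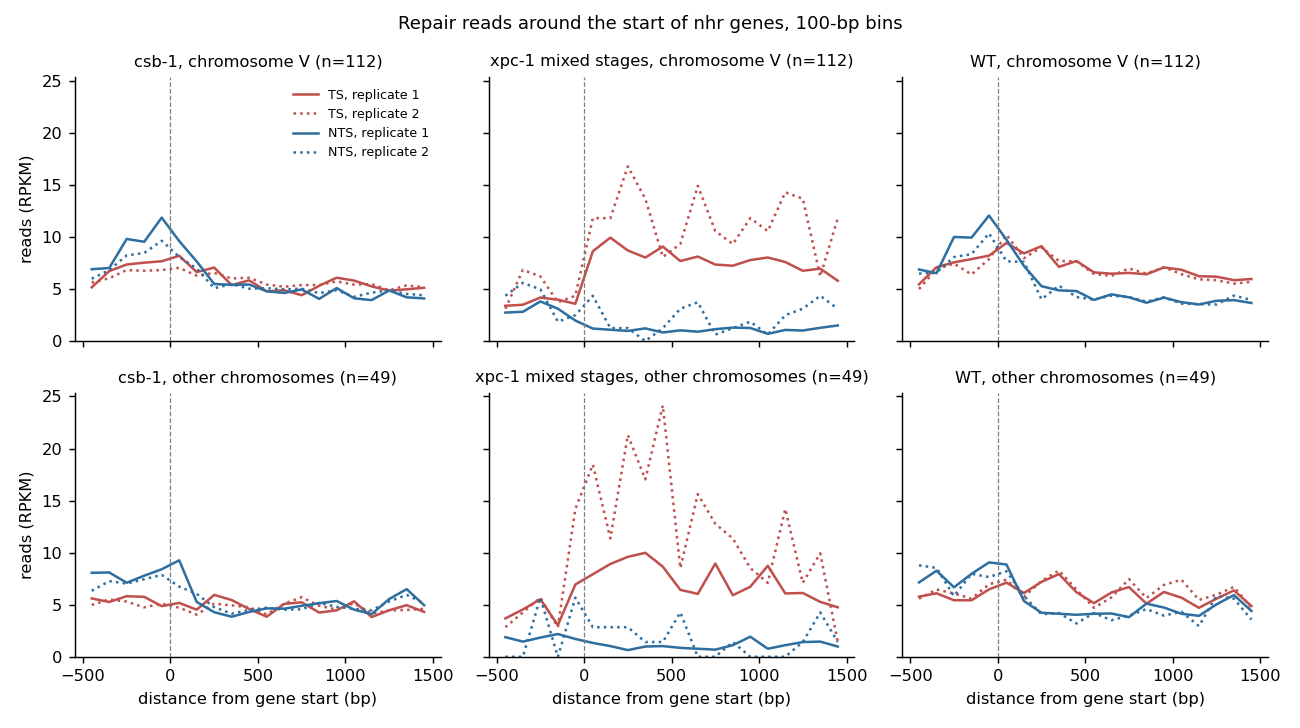
Mean reads of the TS and NTS (RPKM, y axis) in bins of 100 bp, by distance from the gene start (bp, x axis), for *nhr* genes of at least 1500 bp without an overlapping gene, by library and chromosome group. On V the first 500 bp had a TS level of 8.87 and 12.4 RPKM in *xpc-1*, above the 3.72 and 4.85 RPKM of the 500 bp before the start.

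Exons held more reads than introns for their number of TT dinucleotides. On the TS of 124 V members, reads per TT in exons were 2.32 and 1.98 times those in introns in *csb-1*, 1.99 and 2.67 times in *xpc-1*, and 2.28 and 2.47 times in WT. Over 59 other members the ratios were 1.36 and 1.28 in *csb-1*, 1.23 and 1.35 in *xpc-1*, and 1.24 and 1.36 in WT. The V members were above the others in all 6 irradiated libraries, and the strains overlapped. In WT no UV the ratios were 1.72 and 6.68 on V, from 28 and 16 reads, and 1.15 and 1.26 elsewhere, from 9 and 15 reads. Those reads are too few to tell whether exons led there. Exons make up a median of 62.5% of the length of V members and 51.9% of that of the others, and the part of sequence composition in these ratios was not tested.

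Within strains, the strand ratio was above 0 in WT in 133 of 263 members (50.6%) and below 0 in 10, at an adjusted p under 0.05 from limma. Over all genes the shares were 32.1 and 10.6%. The members above 0 were 79 of 167 on V and 54 of 96 elsewhere. In *csb-1* the ratio was above 0 in 10 members and below 0 in 17, where 8.96 and 8.74% of all genes passed. Those below 0 in WT were *nhr-23*, *nhr-74*, *nhr-91*, *nhr-126*, *nhr-155*, *nhr-214*, *nhr-219*, *nhr-230*, *nhr-247* and *nhr-275*. With the TT ratio of each gene subtracted, 126 were above 0 in WT and 8 below. Of the 10 just named, 6 kept the call then and *nhr-23*, *nhr-91*, *nhr-155* and *nhr-219* lost it.

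The TS level, relative to kept reads, was lower in *csb-1* than in WT in 64 members and higher in 5, where 12.9 and 2.64% of all genes passed with limma. The median difference was -0.14 for the members and 0.00 for all genes. Without *csb-1* replicate 1 the count of lower members was 30, and without *csb-1* replicate 2 it was 37. The 5 higher ones were *nhr-74*, *nhr-113* and *nhr-169* on I and *nhr-181* and *nhr-185* on V, chosen after their values were seen. At *nhr-181* the TS level was 3.07 and 3.40 RPKM in *csb-1*, against 2.02 and 1.62 in WT, a difference of 0.83 ± 0.18 (adjusted p = 0.0028 from limma). The other 4 differed by 0.96 to 1.14, and *nhr-74* and *nhr-113* had over 20% of their reads below the mapping quality limit.

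The NTS level was higher in *csb-1* in 3 members and lower in 0, where 1.64 and 0.248% of all genes passed with limma. At an unadjusted p under 0.05, 55 were higher and 0 lower. The median difference was 0.24 for the members and 0.21 for all genes, close to each other. The 3 were *nhr-37* on V, *nhr-121* on III and *nhr-5* on IV. At *nhr-37* the NTS level was 4.28 and 4.53 RPKM in *csb-1*, against 2.15 and 2.36 in WT, a difference of 0.95 ± 0.21 (adjusted p = 0.028 from limma). The count of 3 was 47 without WT replicate 1, 9 without WT replicate 2, 1 without *csb-1* replicate 1 and 0 without *csb-1* replicate 2. With every library centred on its median gene, 0 members passed in either direction, and 11 did at an unadjusted p under 0.05.

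The strand ratio of mixed-stage *xpc-1* was higher than that of WT in 68 of 245 members (27.8%) and lower in 0, with 109 and 0 at an unadjusted p under 0.05. Over all genes 23.8 and 0.894% passed with limma. On V 35 of 161 were higher (21.7%), against 33 of the other 84 (39.3%). The median difference was 1.44 for the members, 1.20 on V and 1.58 elsewhere, and 1.25 over all genes. Genotype and stage differ together here and cannot be told apart, and the marker levels given above differ between the same libraries. Without WT replicate 1 or without WT replicate 2 the count was 0, with 24 and 26 at an unadjusted p under 0.05, and it was 135 and 165 without *xpc-1* replicate 1 and without *xpc-1* replicate 2.

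Of 207 members with at least 20 reads in *xpc-1* replicate 1, 17 had a TS share under 50%. In replicate 2, 18 members had as many reads and 0 of them were under 50%. The lowest of these shares in replicate 1 were 6.25% at *nhr-217* on chromosome I, 24.0% at *nhr-246* and 24.2% at *nhr-111*, an NR2E group receptor, both on V. *nhr-217* had 2 TS and 30 NTS reads there, and its TS share was 46.3 and 44.8% in *csb-1*, against 36.6 and 44.2% in WT. *nhr-111* had 15 TS and 47 NTS reads in *xpc-1* replicate 1 and 0 reads in replicate 2, and its TS share was 38.9 and 44.3% in *csb-1*, against 43.5 and 43.0% in WT. No annotated gene overlaps any of the 3 on the other strand, and none passed a test of the strand ratio between strains. With so few reads in replicate 2, at most 1 each, the low shares rest on 1 library.

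Receptors with other names and genes that work with the receptors were read from the same fit. Over all genes tested 13.3% had a lower strand ratio in *csb-1*, 2.64% a higher TS level and 1.64% a higher NTS level. The lists of 5 genes below are small and not matched for TS level. Their counts were not tested against these shares. Of 5 receptors with other names, 0 passed the test of the strand ratio in *csb-1* against WT with limma, and *unc-55*, a COUP-TF orthologue, had a higher TS level in *csb-1*, by 0.87 ± 0.17 (adjusted p = 0.0013 from limma). *daf-12*, the dauer receptor, had a TS share of 46.4 and 46.6% in *csb-1*, against 45.9 and 50.4% in WT, and the difference was -0.09 ± 0.08 (adjusted p = 0.56 from limma). *mdt-15*, a Mediator subunit that binds NHR-49, had 59.9 and 56.4% in *csb-1*, 98.1 and 100% in *xpc-1*, and 72.5 and 76.0% in WT, a difference of -1.05 ± 0.16 (adjusted p = 0.00085 from limma). Of 5 partner and ligand genes, *din-1*, a DAF-12 corepressor, and *sbp-1*, the SREBP orthologue, also had a lower ratio, at -0.58 ± 0.09 and -0.55 ± 0.15 (adjusted p = 0.0010 and 0.027 from limma). *daf-9* and *daf-36*, which make the ligands of DAF-12, did not pass for the strand ratio, and *daf-36* had a higher NTS level in *csb-1*, by 0.76 ± 0.19 (adjusted p = 0.040 from limma). Of 5 metabolic target genes of NHR-49 and NHR-10, *fat-5*, *fat-6*, *fat-7*, *acs-2* and *acdh-1*, 0 passed for the strand ratio, and *acdh-1* had a higher TS level in *csb-1*, by 0.53 ± 0.17 (adjusted p = 0.045 from limma). A gene on the other strand overlaps *mdt-15*, *din-1*, *sbp-1*, *unc-55*, *daf-12* and *daf-36*, and 30.8% of the reads of *sbp-1* fell below the mapping quality limit.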

How the data were processed

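The 8 XR-seq libraries were deposited by the authors as read positions of 19 to 24 nt, with a mapping quality from 0 to 42 as the deposited score of each read and with a number of copies in the read name. Per the paper's methods, the authors trimmed adaptors with cutadapt, aligned reads to ce11 with Bowtie 2 and removed duplicates, and the submitters' processing notes also list bedtools, STAR and featureCounts. The deposited reads are not filtered on mapping quality, and the files hold no fold changes or p-values of the authors. No file value is a count, and all counts were made here.

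Each read with a score over 20 was counted once, by its midpoint and strand, in genes of the Ensembl annotation of WBcel235. The members and all gene lists were chosen with earlier results of these data known. RPKM values are reads per kilobase of gene per 1000000 kept reads. Strand ratios and log2 levels were tested in R 4.3.3 with limma 3.58.1, for all genes that averaged 20 reads or more, with the prior variance following the mean read number, a pseudocount of 0.5 and Benjamini-Hochberg adjustment over all genes (threshold 0.05). In simulated data the fits recovered 45 of 198 genes changed by 1 on the log2 scale in the *csb-1* strand ratio, 115 of 200 in the TS level, 99 of 199 in the NTS level and 0 of 198 in the *xpc-1* strand ratio, with 1, 5, 2 and 0 false calls. The other tables were made with pandas 2.3.3, scipy 1.17.1 and numpy 2.4.6 under Python 3.11.15.

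Members were named by rule: known receptors from a list, the 8 with the highest TS level in *xpc-1* replicate 1 and the 5 such on V (both among members that no gene overlaps on the opposite strand), the 6 with the largest fall, and the 3 with the lowest TS share in *xpc-1*. Alternatives counted positions once or copies, kept any mapping quality, changed filters, the pseudocount, the weights or the scaling, thinned libraries, used the replicate number as a block, or left out overlapping genes or 1 library. RNA-seq was not analysed here.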

Additional observations from a re-analysis of the deposited data

How the results depend on the processing

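The gap in pooled TS share of *csb-1* minus WT, -7.37 points, ranged from -8.06 to -6.71 over all alternatives, and 1 library left out gave -8.02 to -6.71. The 63 members with a lower strand ratio in *csb-1* were 48 to 82 under 9 other settings. They were 0 with a mean of at least 1 read and 35 without genes overlapping a gene on the other strand, and 21 to 104 with 1 library left out. The 133 above 0 in WT were 88 without overlapping genes and 112 to 139 with 1 library left out. The 64 with a lower TS level were 39 without overlapping genes, 33 in thinned libraries and 30 to 79 with 1 library left out. The 3 with a higher NTS level were 0 when copies were counted, 8 at any mapping quality, 12 with a mean of at least 1 read, 13 when weighted by counts, 0 without overlapping genes, 0 in thinned libraries, 0 when centred on the median gene and 0 to 47 with 1 library left out (40, 37, 29 and 11 at an unadjusted p under 0.05 in limma where the count was 0, in that order). The 68 with a higher strand ratio in *xpc-1* were 34 with copies, 24 with a mean of at least 1 read, 29 with a pseudocount of 1, 158 when weighted by counts, 37 without overlapping genes, 7 of 10 in thinned libraries and 0 to 165 with 1 library left out. The ratio of median TS levels, V members over the others, 0.830, was 0.781 with copies, 0.853 at any mapping quality, 0.752 per TT and 1.12 without overlapping members. Reads in WT were 2707 times those in WT no UV when copies were counted. The V gap of *csb-1* minus WT turned from -0.75 to 1.47 points without overlapping members, and 1 library left out gave -1.16 to -0.33. The causes were not tested.

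Of 39 named members, the 21 that passed kept their direction in all 310 values and their call in 264, and all 21 lost it with a mean of at least 1 read. Of the 18 that did not pass, 8 changed sign in 17 of 261 values, all without passing, and 4 passed in 5 values. *nhr-85*, *nhr-76* and *nhr-57* passed without WT replicate 1, at -0.57, -0.50 and -0.57, *nhr-85* also in thinned libraries, at -0.66, and *nhr-8* when weighted by counts, at -0.50. *nhr-23* changed to -0.025 with positions counted once, -0.0055 when weighted by counts and -0.088 in thinned libraries. In thinned libraries *nhr-111*, *nhr-114*, *nhr-2* and *nhr-246* changed to 0.16, 0.12, -0.0076 and -0.19, and *nhr-68* changed to 0.075 with copies. With 1 library left out, *nhr-23* ranged from -0.10 to 0.15, *nhr-91* from -0.15 to 0.034, *nhr-111* from -0.26 to 0.062, *nhr-114* from -0.32 to 0.00081, *nhr-76* from -0.50 to 0.16, *nhr-2* from -0.17 to 0.27 and *nhr-246* from -0.061 to 0.29.

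Whether samples of the same replicate number deviated together was looked at over all genes tested. The correlations of their deviations were between -0.02 and 0.04, so the numbers do not pair the samples. With the replicate block the counts were 74 for the strand ratio, 137 for the ratio above 0 in WT, 73 for the TS level, 17 for the NTS level and 77 for *xpc-1* against WT. Depth limits the *xpc-1* values, since replicate 2 held 143716 kept reads and had 0 TS reads at 80 of the 269 members.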
